A study of Mus musculus with 6 samples.

Results

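The 9 miRNAs described here are the guide strands of the let-7 family, mmu-let-7a-5p to mmu-let-7g-5p and mmu-let-7i-5p, together with their close relative mmu-miR-98-5p. They were found by name among the 598 miRNA names of a count table of exosomal small RNA, and all 9 were present in every library. RAW264.7 is an established mouse macrophage line of wild-type genotype. In the M0-Exo group (3 samples) the cells grew for 24 h with no added cytokine, and in the M2-Exo group (3 samples) 20 ng/mL of IL-4 and 20 ng/mL of IL-13 were present over the same 24 h. Both groups were then moved to serum-free medium, from which exosomes, small vesicles released by cells, were collected by ultracentrifugation. The sources used here do not say whether the 3 samples of a group came from separate cultures. The tests therefore rest on the spread between these samples, which may be technical. All 6 carried the same batch label.

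A miRNA is cut from a hairpin precursor, and usually 1 of its arms, the guide, is loaded into an Argonaute protein and pairs with messenger RNAs through its seed, bases 2 to 8. The let-7 family is conserved across animals and is known for its rise as cells differentiate. Its best known targets include Ras genes, Hmga2 and Lin28, and Lin28 proteins in turn block the maturation of let-7 precursors.

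The mature sequences of all 9 members, as the deposited table gives them, are shown because members are told apart by few bases; capitals mark the seed. The 9 were identical to the mature sequences in RefSeq.
let-7a-5p: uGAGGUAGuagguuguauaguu
let-7b-5p: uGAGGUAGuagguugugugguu
let-7c-5p: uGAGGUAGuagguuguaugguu
let-7d-5p: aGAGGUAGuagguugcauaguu
let-7e-5p: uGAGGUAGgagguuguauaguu
let-7f-5p: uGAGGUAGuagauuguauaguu
let-7g-5p: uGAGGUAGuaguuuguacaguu
let-7i-5p: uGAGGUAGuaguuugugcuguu
miR-98-5p: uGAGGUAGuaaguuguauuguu

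Each member was 22 bases long and the seed GAGGUAG was the same in all 9. Outside it, 4 of the 36 pairs of members differed at 1 base and 10 at 2 bases, and the most distant pair differed at 6. Counted from 1 at the 5′ end, the pairs that differed at 1 base were let-7a-5p and let-7c-5p (A19G), let-7a-5p and let-7e-5p (U9G), let-7a-5p and let-7f-5p (G12A), and let-7b-5p and let-7c-5p (G17A). How reads with a mismatch were assigned is not given in the sources used here, so the split of counts between such neighbours is uncertain. The members held between 7 (let-7f-5p and miR-98-5p) and 10 (let-7b-5p) G or C bases. Their mean GC content was 38.4%, against 53.5% for the 241 names with a mean of at least 10 counts.

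The members come from 12 annotated hairpins on 7 chromosomes, given here on RefSeq's GRCm38.p6 with overlapping genes from GENCODE M21. On the minus strand of chromosome 13, Mirlet7d (chr13:48536012-48536114), Mirlet7f-1 (chr13:48537829-48537917) and Mirlet7a-1 (chr13:48538179-48538272) lay in exons of the lincRNA gene 6720427I07Rik. On the plus strand of chromosome 15, Mirlet7c-2 (chr15:85706603-85706697) and Mirlet7b (chr15:85707319-85707403) lay in exons of the non-coding gene Lncppara. Mirlet7f-2 (chrX:151912346-151912428) and Mir98 (chrX:151913214-151913321) lay in introns of Huwe1, Mirlet7g (chr9:106178840-106178927) in an intron of Wdr82, and Mirlet7e (chr17:17830352-17830444) in an intron of Spaca6. Mirlet7c-1 (chr16:77599657-77599750) lay in an intron of the non-coding gene Mir99ahg and, on the opposite strand, of Gm11146. Mirlet7a-2 (chr9:41536716-41536811) lay in introns of the non-coding genes 3110039I08Rik and Gm49317, and Mirlet7i (chr10:122985640-122985724) on the minus strand in an exon of D630033A02Rik.

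The deposited table counts a mature miRNA once for each hairpin it can come from, and 3 members had more than 1 entry. For let-7a-5p the count listed under the second hairpin was lower than that under the first by between 0.045% and 0.157% in the 6 libraries. The gap was between 0.522% and 1.14% for let-7c-5p and between 1.99% and 2.41% for let-7f-5p. The entries of a name were nearly equal in each library, so they were not added, and only the entry of highest total was used. These counts therefore do not tell which hairpin a guide came from.

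The family made up most of every library. With 1 entry per name, the libraries held between 860204 and 1453348 counts. In M0-Exo replicates 1, 2 and 3 the 9 members took 76.6%, 74.5% and 75.2% of the counts, and in the same replicates of M2-Exo 77.4%, 75.8% and 77.4%. The 95% Wilson interval was 74.4% to 74.6% in M0-Exo replicate 2 and similarly narrow in the other libraries. These intervals cover counting error only, since reads copied by PCR are not independent molecules. The groups overlapped, because M0-Exo replicate 1 lay above M2-Exo replicate 2. The mean share was 75.4% ± 1.08 (SD, n = 3) in M0-Exo and 76.9% ± 0.902 (SD, n = 3) in M2-Exo, a difference of 1.44 percentage points. With the entries of a name summed, the shares were between 80.7% and 82.6% and the difference was 0.683 percentage points. An exact permutation test of 3 samples against 3 cannot give a two-sided p below 0.1. A share of a library does not tell a change in the number of exosomes from a change in the miRNA that each carries.

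**Figure D1:**
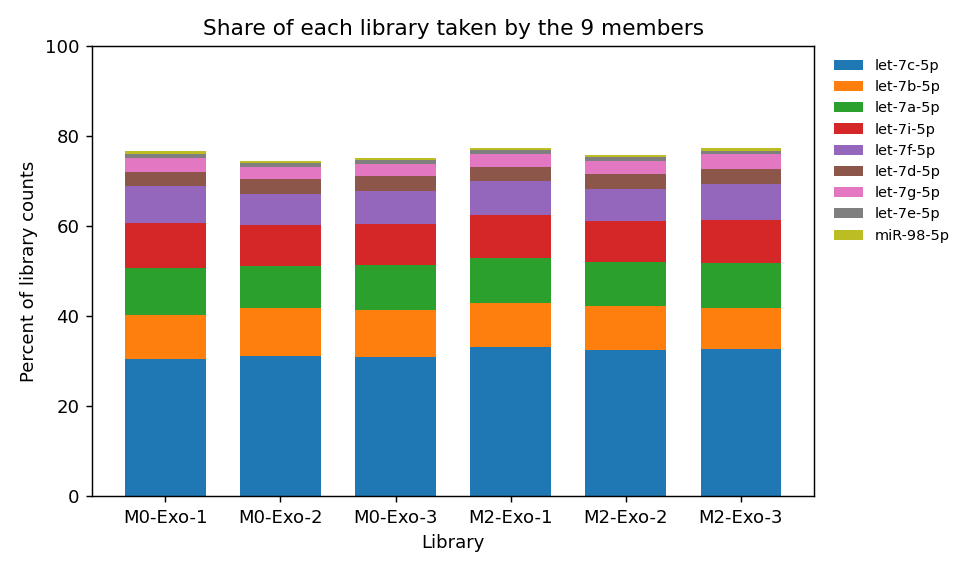
Stacked bars give the percent of each library's counts (vertical axis) taken by each of the 9 members in the 3 M0-Exo and 3 M2-Exo libraries. The bars end between 74.5% and 77.4%, and let-7c-5p is the largest block in all 6.

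let-7c-5p alone gave 41.6% of all family counts, and let-7c-5p, let-7b-5p, let-7a-5p, let-7i-5p and let-7f-5p together gave 90.0%. These were the 5 most abundant names in the whole table. The most abundant name outside the family, miR-191-5p, ranked 6, followed by let-7d-5p and let-7g-5p at 7 and 8. let-7e-5p and miR-98-5p ranked 15 and 20. let-7b-5p, let-7a-5p and let-7i-5p lay close together, with 13.7% ± 0.807, 13.04% ± 0.407 and 12.6% ± 0.525 of the family in M0-Exo, against 12.6% ± 0.558, 12.8% ± 0.103 and 12.3% ± 0.114 in M2-Exo (SD, n = 3). By these means let-7b-5p led the 3 in M0-Exo and let-7a-5p in M2-Exo. Within a library let-7a-5p exceeded let-7i-5p in all 6, while let-7b-5p lay below both in M0-Exo replicate 1 and above both in M0-Exo replicates 2 and 3. In M2-Exo, let-7b-5p lay above both in replicate 2, between them in replicate 1 and below both in replicate 3. This closeness and order hold for 1 entry per name. Summing adds a nearly equal second entry to let-7a-5p, let-7c-5p and let-7f-5p only. With the entries of a name summed, let-7a-5p took 15.98% in M0-Exo and 15.5% in M2-Exo (means). Then let-7b-5p took 8.41% and 7.63%, and let-7i-5p 7.71% and 7.46%, both below let-7f-5p at 11.9% and 11.8%.

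To compare the groups miRNA by miRNA, all 598 names were fitted with edgeR's quasi-likelihood test on TMM-scaled counts. In this fit the dispersion, the spread beyond counting error, was shared between miRNAs. Its SE and p values therefore do not measure each miRNA's own spread between samples. TMM (trimmed mean of M values) sets the scale by a trimmed mean of the ratios of all names between libraries, so that a fold change is read against the typical miRNA and not against the library total. The scaling mattered for this family. TMM factors were 1.07, 1.08 and 1.08 in M0-Exo, against 0.911, 0.970 and 0.902 in M2-Exo. Without them, the median log2 fold change of the 241 names with a mean of at least 10 counts moved from -0.0088 to -0.22.

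With TMM, 6 of the 9 members were called higher in M2-Exo (Benjamini-Hochberg adjusted p below 0.05 over all 598 names) and none lower. Of all names, 8.86% were called in either direction and 4.18% as higher, which is 25 higher and 28 lower. All of these calls fell among the 241 names with a mean of at least 10 counts, to which the 9 members belong. All 9 members had a positive log2 fold change, with a median of 0.22, against -0.0088 for those 241 names. With library totals in place of TMM the fold changes of let-7a-5p, let-7b-5p, let-7d-5p, let-7e-5p and let-7i-5p turned negative and none of the 9 members was called by edgeR. The members' median was then -0.00014, against -0.22 for the 241 names. A change of scaling moves all names by about the same amount, so this gap stays by construction and is no separate test. With library totals, 1 member had an unadjusted p below 0.05, and 8.19% of all names were called, 9 higher and 40 lower.

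let-7c-5p, which makes up the largest part of the family, had 284241, 287190 and 286603 TMM-scaled CPM (counts per 1000000 scaled counts) in M0-Exo. In M2-Exo it had 362867, 334182 and 361551 CPM. Every M2-Exo library lay above every M0-Exo library. Its log2 fold change was 0.30 (SE 0.055, edgeR adjusted p = 1.31e-06), and with library totals it was 0.084 (edgeR adjusted p = 0.391). For edgeR on the 241 names alone its adjusted p was 0.000444. Its share of the library was 30.5%, 31.1% and 30.9% in M0-Exo, against 33.1%, 32.4% and 32.6% in M2-Exo, so the groups did not overlap on that scale either. let-7g-5p had the largest TMM fold change of the 9, from 28744, 24228 and 25342 CPM in M0-Exo to 33602, 30333 and 37188 in M2-Exo. The groups again did not overlap, although M0-Exo replicate 1 came close to M2-Exo replicate 2. Its log2 fold change was 0.37 (SE 0.072, edgeR adjusted p = 9.79e-06), and 0.15 with library totals (edgeR adjusted p = 0.232). For edgeR on the 241 names alone its adjusted p was 0.00532.

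The other 4 members called with TMM were let-7a-5p, let-7f-5p, let-7i-5p and miR-98-5p, with log2 fold changes of 0.22, 0.25, 0.21 and 0.29. With library totals these were -0.00014, 0.028, -0.0075 and 0.072. let-7f-5p was the 1 member whose TMM-scaled groups overlapped: its M0-Exo replicate 1 held 75552 CPM and its M2-Exo replicate 2 held 73563. In the other 8 members every M2-Exo library exceeded every M0-Exo library on this scale, as did 9.53% of all names. let-7b-5p, let-7d-5p and let-7e-5p were not called in this edgeR fit. let-7d-5p (edgeR adjusted p = 0.0747) was called by DESeq2 (adjusted p = 0.0426) and by edgeR on the 241 names alone (adjusted p = 0.0316). The 3 TMM log2 fold changes were 0.12 (SE 0.063), 0.19 (SE 0.071) and 0.071 (SE 0.087), and each was negative with library totals. The 6 called members stayed called in DESeq2 and in edgeR on the 241 names alone, each at a higher adjusted p. For let-7f-5p it was 0.0444 (DESeq2) and 0.0394 (edgeR, 241 names), against 0.00245 (edgeR, all names).

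**Figure D2:**
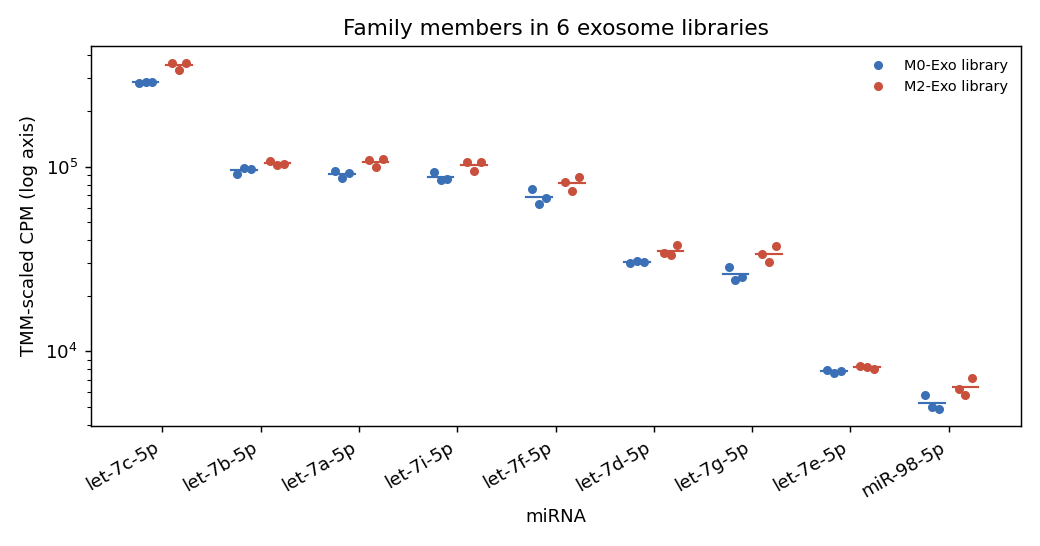
Points give the TMM-scaled CPM (log axis) of each member in each library, with short lines at the group means of 3 libraries. On this scale the M2-Exo means lie above the M0-Exo means for all 9 members, an order that turns for let-7a-5p, let-7b-5p, let-7d-5p, let-7e-5p and let-7i-5p when library totals set the scale.

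A second rule asked for a log2 fold change of 0.5 or more in size with an unadjusted edgeR p below 0.05. With TMM none of the 9 members met it, while 3.68% of all names did as higher and 6.35% as lower in M2-Exo. With TMM, 7 members had an unadjusted p below 0.05, so it was the size of the change that kept them below this rule. DESeq2 also placed none of the 9 past it, and limma did the same.

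**Figure D3:**
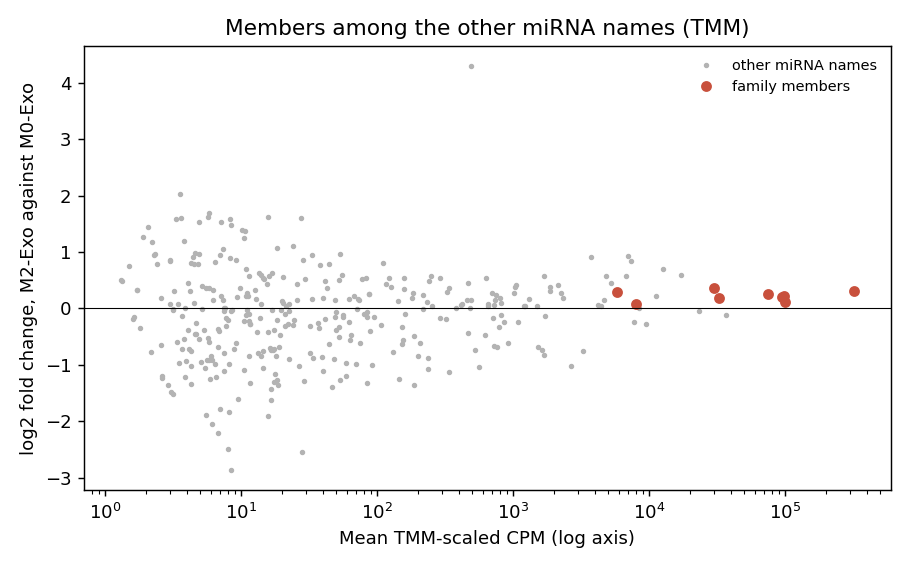
Each point is a miRNA name, with its mean TMM-scaled CPM (horizontal log axis) and its log2 fold change of M2-Exo against M0-Exo (vertical axis); 245 other names at or under 3 counts in every library of a group are not drawn. The 9 members lie among the most abundant names, between 0.071 and 0.37 with TMM, and 5 of them fall below 0 with library totals.

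The family's own weight in the scaling was checked by computing TMM on the 589 names outside it, with library sizes that leave its counts out. The same 6 members were called, with a median log2 fold change of 0.26 over the 9, and 8.70% of all names were called. When the library size was instead set to the family total, so that each member is read against the family, none of the 9 was called by edgeR and 1 had an unadjusted p below 0.05. In that fit 8.03% of all names were called, 8 higher and 40 lower.

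The libraries also differed in how abundance varied with base composition. Across the 241 names, the slope of the TMM-scaled log2 abundance, relative to each name's mean, per 10 percentage points of GC was -0.051, 0.26 and 0.18 in M0-Exo, against -0.078, -0.17 and -0.14 in M2-Exo. All 3 M2-Exo slopes lay below the lowest M0-Exo slope, and the members have fewer G and C bases than most names. With an offset for this slope, the median log2 fold change of the 9 members was -0.15, against -0.11 for the 241 names. None of the 9 was called by edgeR in that fit, while 4 had an unadjusted p below 0.05 and 5.52% of all names were called, 12 higher and 21 lower. The slopes were estimated from these same counts and separated by group. The offset thus removes any group difference that is linear in GC, whatever its source. The part of base composition in the differences with TMM was therefore not tested.

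**Figure D4:**
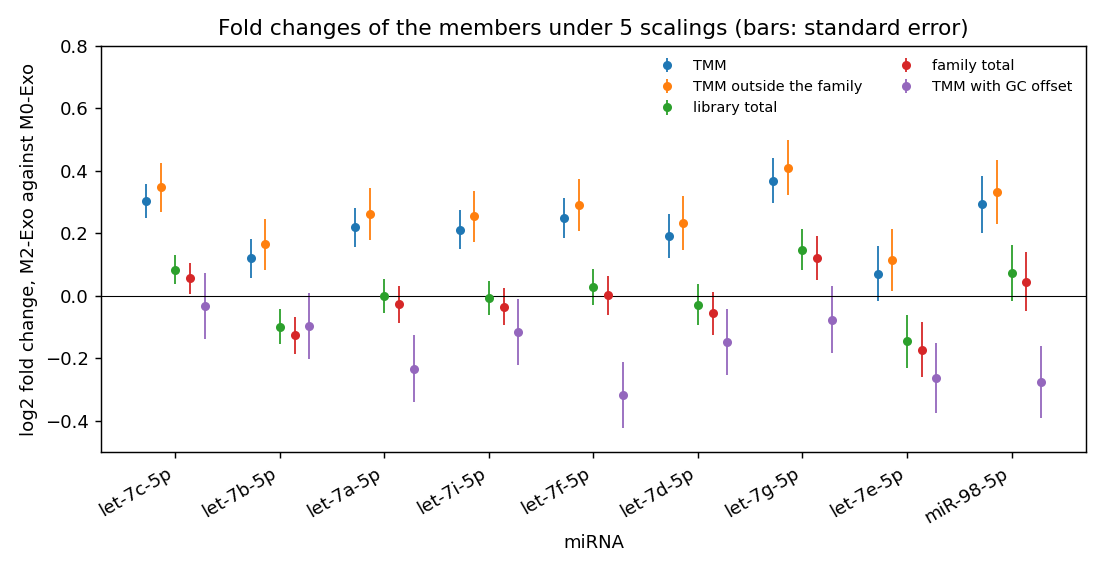
Points give each member's log2 fold change, M2-Exo against M0-Exo (vertical axis), and bars its standard error, under 5 scalings in edgeR. With TMM, computed on all names or outside the family, all 9 lie above 0; with library totals or the family total 4 lie above and 5 below; with the GC offset all 9 lie below 0.

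Leaving out single libraries changed the number of members called. With TMM, 6 were called without M0-Exo replicate 1 (59 of 584 names called) and 6 without M2-Exo replicate 2 (41 of 573). In the fit without M2-Exo replicate 1, 3 were called (39 of 563 names). The number was 2 without M0-Exo replicate 2 (33 of 582 names), without M0-Exo replicate 3 (41 of 584) or without M2-Exo replicate 3 (44 of 561). let-7c-5p and let-7g-5p were called in all 6 of these fits, and the fold changes of all 9 members stayed positive in them.

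Shares within the family do not depend on the scaling, since all members of a library are divided by the same total, but they do depend on how repeated entries are treated. let-7c-5p took 39.9%, 41.8% and 41.1% of the family in M0-Exo, against 42.7%, 42.7% and 42.1% in M2-Exo. The groups did not overlap, and the means were 40.9% ± 0.965 and 42.5% ± 0.353 (SD, n = 3), a difference of 1.62 percentage points. let-7e-5p took 1.11%, 1.12% and 1.12% in M0-Exo, against 0.979%, 1.06% and 0.933% in M2-Exo. Here every M2-Exo library lay below every M0-Exo library, with means of 1.12% ± 0.0042 and 0.989% ± 0.062 (SD, n = 3). As a share of the library, too, the groups of let-7e-5p did not overlap, at 0.841% ± 0.010 and 0.760% ± 0.039 (SD, n = 3). let-7c-5p and let-7e-5p were the only members whose shares of the library did not overlap. The other 7 members overlapped between the groups. When the entries of a name were summed, let-7c-5p overlapped, with 51.1% in M0-Exo replicate 2 above 50.98% in M2-Exo replicate 3. Among members, summing adds counts only to let-7a-5p, let-7c-5p and let-7f-5p, whose second entries nearly repeat the first. let-7i-5p then separated by a narrow margin, from 7.521% in M0-Exo replicate 3 to 7.519% in M2-Exo replicate 1, and let-7e-5p stayed separated. Of all 598 names, 18.7% did not overlap when counts were divided by the family total (also 18.7% with summed entries), and 18.7% when they were divided by the library total, so 2 of 9 members is close to the background. The 95% Wilson intervals of single shares within the family reached at most 0.12 percentage points to either side.

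let-7b-5p took 12.8%, 14.4% and 13.97% of the family in M0-Exo, against 12.6%, 13.1% and 11.98% in M2-Exo. M0-Exo replicate 1 fell within the range of M2-Exo. The mean share differed by -1.15 percentage points. The ratio of let-7b-5p to let-7c-5p, which differ at 1 base, was 0.335 ± 0.012 in M0-Exo and 0.295 ± 0.011 in M2-Exo (SD, n = 3) with no overlap between the groups. In the other 3 pairs that differ at 1 base the ratios overlapped. The share of other name pairs with ratios that do not overlap is not given here. These ratios use 1 entry per name. With entries summed, the mean shares of let-7b-5p and let-7c-5p were 8.41% and 49.9% in M0-Exo. In M2-Exo they were 7.63% and 51.5%, so that ratio is lower in both groups when entries are summed.

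**Figure D5:**
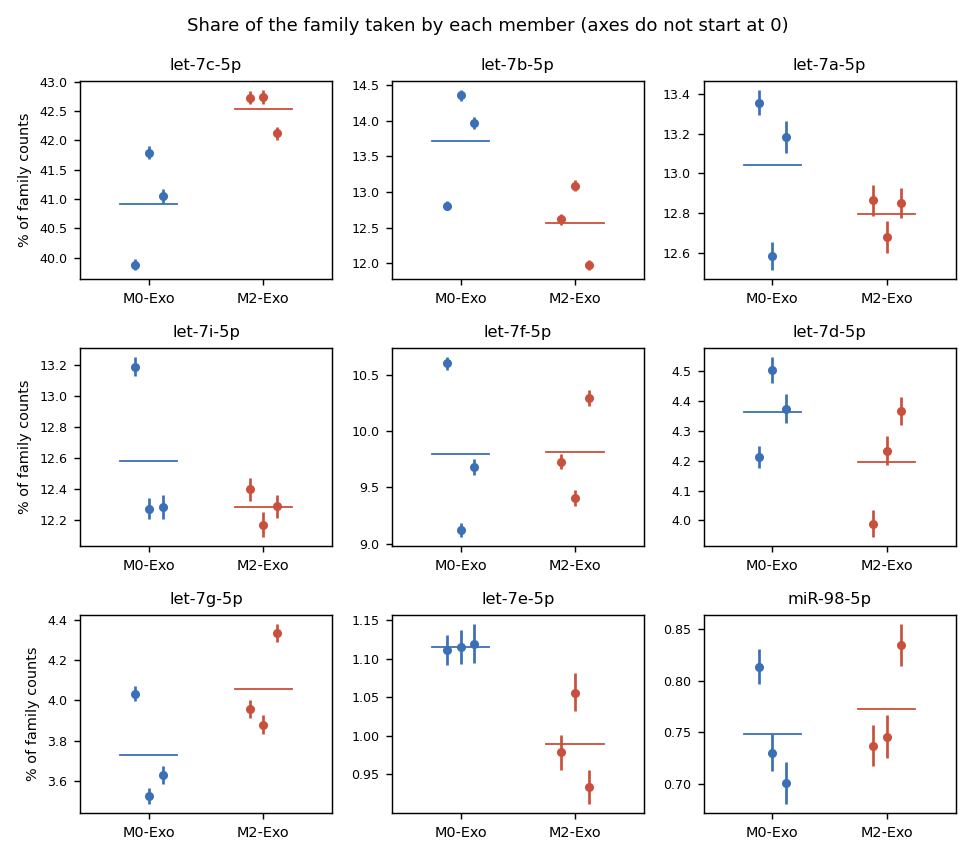
Each panel gives 1 member's percent of the family's counts (vertical axis, not starting at 0) in the 3 M0-Exo and 3 M2-Exo libraries, with 95% Wilson intervals as bars and lines at the group means. The groups are apart for let-7c-5p, higher in M2-Exo, and for let-7e-5p, lower in M2-Exo, and overlap for the other 7; with entries summed let-7c-5p overlaps and let-7i-5p does not.

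M0-Exo replicate 1 stood apart from the other M0-Exo libraries in the make-up of the family. It held 10.6% let-7f-5p against 9.12% and 9.68% in replicates 2 and 3, 13.2% let-7i-5p against 12.3% and 12.3%, and less let-7b-5p and let-7c-5p. Over the 9 members, the log2 ratio of its shares to the mean of the other M0-Exo libraries had a Pearson correlation of -0.87 with the number of G and C bases. The ratio of the M2-Exo to the M0-Exo shares had a correlation of -0.57 with that number. Both are descriptions over 9 related sequences from the same libraries, chosen after the shares were seen.

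The opposite strand of each hairpin, the passenger arm, was rare. Of the 12 arms, 8 were listed, with 232 counts in all against 4751453 for the members. let-7d-3p was the 1 arm with more than 3 counts in every library, counted 40, 35 and 18 times in M0-Exo against 39, 35 and 16 times in M2-Exo. This is between 0.049% and 0.135% of the counts of both arms of its hairpin, with no separation of the groups. Both arms are in capitals in the hairpin, shown because it is the only hairpin of the 12 with both arms above 3 counts throughout.
Mirlet7d hairpin: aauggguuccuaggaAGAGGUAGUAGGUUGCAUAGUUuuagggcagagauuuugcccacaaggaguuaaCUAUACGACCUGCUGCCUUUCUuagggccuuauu

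let-7b-3p had 24 counts over the 6 libraries, and let-7c-1-3p, let-7e-3p, let-7f-1-3p, let-7g-3p, let-7i-3p and miR-98-3p between 1 and 8 each. None of the 8 listed arms was called. A count of 0 was read as at most 3 counts, which is 2.06 CPM in the deepest library and 3.49 CPM in the shallowest, so differences among these arms were not detectable.

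A pair of other table names resemble the family. let-7k was the 1 name outside the 9 with the same bases 2 to 8, and let-7j was singled out after its values were seen.
let-7k: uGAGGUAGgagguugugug
let-7j: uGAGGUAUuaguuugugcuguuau

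let-7k was counted 12, 2 and 3 times in M0-Exo against 0, 2 and 1 times in M2-Exo, too few to compare. let-7j differs from let-7i-5p over its 22 bases by G8U, which lies in the seed. Per 100 counts of let-7i-5p, the M0-Exo libraries held 4.98, 4.87 and 5.26 counts of let-7j, against 4.89, 4.62 and 4.96 for M2-Exo. The ratio thus stayed within a narrow band in all 6 libraries, and the groups overlapped. The log2 fold change of let-7j with TMM was 0.15 (SE 0.095, edgeR adjusted p = 0.482). With library totals it was -0.068 (edgeR adjusted p = 0.707). With the GC offset let-7j was called lower, at -0.38 (SE 0.117, edgeR adjusted p = 0.0267).

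miR-99a, miR-99b, miR-100, miR-125a and miR-125b are encoded next to let-7 hairpins in mammals. Of their 5 guide strands, 2 were called higher with TMM, as were 4.18% of all names, and none with library totals. miR-99a-5p had 6040 ± 103 CPM in M2-Exo against 4406 ± 155 CPM in M0-Exo (SD, n = 3). Its log2 fold change was 0.45 (SE 0.094, edgeR adjusted p = 3.04e-05). miR-125b-5p had a log2 fold change of 0.39 (SE 0.124, edgeR adjusted p = 0.0226). With library totals these log2 fold changes were 0.24 (edgeR adjusted p = 0.111) and 0.17 (edgeR adjusted p = 0.533). With the GC offset they were 0.36 (edgeR adjusted p = 0.0342) and 0.29 (edgeR adjusted p = 0.275). miR-99b-5p, miR-100-5p and miR-125a-5p were not called, with log2 fold changes of 0.069, -0.11 and 0.24. For comparison, miR-191-5p, the most abundant name outside the family, had a log2 fold change of -0.12 (SE 0.070, edgeR adjusted p = 0.452). With library totals it was called lower, at -0.33 (SE 0.064, edgeR adjusted p = 5.63e-06). With the GC offset it was -0.15 (edgeR adjusted p = 0.569).

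Among 101 other names with at least 100 counts on average, the 3 whose log2 TMM-scaled CPM followed the family total most closely over the 6 libraries were miR-15b-5p, miR-7a-5p and miR-24-3p. Their Pearson correlations were 0.99, 0.98 and 0.96. All 3 were called higher in M2-Exo with TMM, with log2 fold changes of 0.54, 0.71 and 0.41. With library totals these were 0.32, 0.49 and 0.19, and only miR-7a-5p was called (edgeR adjusted p = 1.63e-08). With the GC offset they were 0.21, 0.22 and 0.44, and only miR-24-3p was called (edgeR adjusted p = 0.0107). The correlations were taken across both groups on the TMM scale, so they include the difference between the groups.

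The label of a macrophage line was set against marker miRNAs. All 6 macrophage or myeloid markers were listed, and together they gave 2872, 1770 and 1258 counts in M0-Exo against 1088, 1189 and 1363 in M2-Exo, with miR-155-5p the most abundant in M0-Exo and miR-142a-3p in M2-Exo. With TMM, miR-155-5p fell by 1.04 on the log2 scale (SE 0.148, edgeR adjusted p = 1.85e-10), while miR-142a-3p and miR-21a-5p were called higher although their groups overlapped, and neither was called with library totals. Of the other lists, 2 of 3 red cell and serum markers had between 59 and 138 counts a library, with miR-486a-5p the most abundant. The lymphocyte marker miR-150-5p had between 0 and 40. The 3 of 5 stromal and muscle markers listed had between 22 and 68, led by miR-143-3p. Among them miR-199a-3p was counted 1, 0 and 0 times in M0-Exo, against 7, 7 and 19 times in M2-Exo, and was not called (edgeR adjusted p = 0.0582). The 4 of 6 epithelial markers listed had between 35 and 110, led by miR-200c-3p. Of the neuronal markers, miR-9-5p had between 0 and 12 counts.

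The liver marker miR-122-5p was counted 63, 59 and 51 times in M0-Exo, against 137, 107 and 2184 times in M2-Exo. All 3 M2-Exo libraries lay above all 3 M0-Exo libraries in TMM-scaled CPM, and M2-Exo replicate 3 stood far above the other 5. The log2 fold change with TMM was 4.30 (SE 0.179, edgeR adjusted p = 3.54e-112), and without M2-Exo replicate 3 it was 1.61 (SE 0.346, edgeR adjusted p = 0.000105). In the fit of all 6 libraries the dispersion was shared between miRNAs. Its SE and p do not measure the M2-Exo spread of 160, 128 and 2497 CPM. The part of miR-122-5p in the family's results was not tested beyond leaving M2-Exo replicate 3 out. Without it the family's share of the counts was higher in M2-Exo by 1.19 percentage points, and 2 members were called with TMM, among 44 of 561 names (18 higher and 26 lower).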

How the data were processed

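Small RNA libraries of 3 M0-Exo and 3 M2-Exo samples were compared, grouped by their labels. The authors deposited raw counts per mature miRNA and hairpin (638 entries) and RPM values. Recomputed from the counts and the total of all entries in a library (times 1000000), the deposited RPM differed by at most 0.005. The submitters' processing notes name the build mm39; the aligner, counting tool and miRNA release are not given in the sources used here. Positions are on GRCm38.p6 from RefSeq and were not converted.

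Each of 598 names was represented by its entry of highest total. edgeR 4.0.16 in R 4.3.3 was run with TMM, estimateDisp, glmQLFit and glmQLFTest at their defaults, without covariates, and calls required a Benjamini-Hochberg adjusted p below 0.05. The prior degrees of freedom were infinite, so the quasi-dispersion was shared between miRNAs. The SE is the absolute unshrunk coefficient divided by the square root of F. The fit was tested on simulated data, first with a single dispersion for all miRNAs, under which few changes were recovered, and then with dispersions that follow abundance as in these libraries. The criterion was reset at the same time to large changes of well counted miRNAs, which it met, while most smaller changes were missed when miRNAs with low counts were included.

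Alternatives were other scalings, DESeq2 1.42.0, limma 3.58.1 on log2(RPM + 1), a minimum mean of 10 counts, other treatments of entries, a GC offset, the replicate number as a block and the omission of each library. Named miRNAs were the members, their passenger arms, names with the same seed, 5 neighbours, the 3 names most correlated with the family total, the most abundant other name and marker lists. The members and lists were chosen with earlier results of these data known. Python 3.11.15, scipy 1.17.1 and matplotlib 3.10.9 were used for shares, intervals and figures.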

Additional observations from a re-analysis of the deposited data

How the results depend on the processing

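The count of 53 names called with TMM was 33 with the GC offset and between 33 and 59 without single libraries. The count of 6 members called was 0 with library totals, 0 with the family total, 0 with limma on log2(RPM + 1) (52 names called, 2 members at an unadjusted p below 0.05) and 0 with the GC offset, and between 2 and 6 without single libraries. With the replicate number as a block, 52 names and 6 members were called; deviations from the group means correlated by -0.041, 0.017 and -0.046 between samples sharing a number, over 241 names, so the number is not read as a pairing. DESeq2's Wald test called 7 members among 50 names (27 higher and 23 lower), and edgeR on names with a mean of at least 10 counts called 7 members among 56 of 241 names.

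Log2 fold changes that turned negative were, with library totals, let-7a-5p -0.00014, let-7b-5p -0.098, let-7d-5p -0.029, let-7e-5p -0.15 and let-7i-5p -0.0075. With the family total they were -0.027, -0.13, -0.056, -0.17 and -0.034 in the same order, and with limma -0.028, -0.13, -0.058, -0.18 and -0.035. With the GC offset they were let-7a-5p -0.23, let-7b-5p -0.097, let-7c-5p -0.033, let-7d-5p -0.15, let-7e-5p -0.26, let-7f-5p -0.32, let-7g-5p -0.076, let-7i-5p -0.12 and miR-98-5p -0.28. Library totals, the family total and limma on RPM leave out TMM by construction. The GC offset by construction lowers fold changes of names with less GC than the mean of 53.5%, since slopes were lower in M2-Exo. All 9 members lay below that mean, at 45.5% or less. What caused the slopes was not tested.

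The family's share of the library was higher in M2-Exo by between 0.966 and 2.03 percentage points without single libraries, and by 0.683 with entries summed. The let-7f-5p share of the family differed by 0.0096 percentage points, by -0.113 with entries summed and by between -0.330 and 0.409 without single libraries. For let-7i-5p the range without single libraries was -0.451 to 0.0070, and for miR-98-5p -0.0068 to 0.057.

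Depth limits the passenger arms other than let-7d-3p, which had at most 6 counts in any library.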
